A study of Mus musculus with 6 samples.

Results

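The genes described here are the cytochrome P450 genes of families 1 to 3, chosen from a count table of 24421 mouse genes by symbol alone: Cyp, a family number of 1, 2 or 3, a subfamily in letters and a final number. Of the symbols that match, Cyp2j5 and Cyp2j13 were set aside, and 57 genes remained. Symbols that end in a letter or a pseudogene mark, such as Cyp3a41a, do not match. The rule itself uses symbols and no levels, but it was set with earlier results of these data known. Kidney cortex RNA was compared between a PT-I-PpoI group, mice whose proximal tubular epithelial cells make I-PpoI, and a wild type group, with 3 libraries in each and no other treatment given. I-PpoI, a homing endonuclease, makes double-strand breaks in DNA wherever it finds its long recognition site. Which promoter drives I-PpoI, and the age, sex and strain of the mice, are not given in the sources used here.

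Cytochrome P450s are heme enzymes that insert 1 oxygen atom from O2 into a substrate. Those of families 1 to 3 sit in the endoplasmic reticulum, take electrons from the reductase Por and clear drugs, carcinogens, steroids and fatty acids. They are best known from the liver, where nuclear receptors induce them, and in the mouse kidney they are found mainly in the proximal tubule. Several mouse members are known to differ between the sexes and to follow the time of day through the clock output factors Dbp, Tef and Hlf.

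The 6 libraries held 13.6 M to 20.9 M counted read pairs (M, 1e6), and the 57 genes together took 0.445 to 0.641% of them. The labels number the samples of a group without stating that they are separate mice, and a p-value here reflects the spread among these samples only. Library names are written in 2 forms. The plain form, with no hyphen before the last number, belongs to 3 libraries: PT-I-PpoI replicates 1 and 2 together with wild type replicate 1. The hyphenated form belongs to the other 3: PT-I-PpoI replicate 3 together with wild type replicates 2 and 3. The labels do not say what the form stands for. It is spread unevenly over the groups, so the 57 genes were compared both between groups and between name forms. Both comparisons use the same 6 libraries and are not independent of each other. The 4 Y-linked genes of the fixed list were read in every library, with a summed level of 83.5 to 102 CPM (counts scaled to 1e6 per library). Xist, which is made from an inactive X chromosome, had 51 read pairs in PT-I-PpoI replicate 1 and 1 to 4 in each other library.

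The stretches upstream of 4 genes named in the results below are shown as background. No test of levels used their letters. Each holds the 250 bases before the annotated start of the gene, 5′ to 3′ on the gene's own strand, from RefSeq on GRCm38.p6 (mm10). The first 2 belong to the paralogs Cyp2a5, at chr7:26835089-26835338 on the plus strand, and Cyp2a4, at chr7:26306942-26307191 on the plus strand. Capitals mark the bases at which the pair differs once aligned: 245 of 251 aligned columns (97.61%) are identical, 4 are substituted, and 2 are end gaps because the annotated starts lie 1 base apart.
Cyp2a5: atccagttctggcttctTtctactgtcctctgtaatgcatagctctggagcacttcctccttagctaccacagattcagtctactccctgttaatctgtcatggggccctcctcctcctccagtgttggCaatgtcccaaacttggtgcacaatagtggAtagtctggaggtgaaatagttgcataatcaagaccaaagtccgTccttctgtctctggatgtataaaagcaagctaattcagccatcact
Cyp2a4: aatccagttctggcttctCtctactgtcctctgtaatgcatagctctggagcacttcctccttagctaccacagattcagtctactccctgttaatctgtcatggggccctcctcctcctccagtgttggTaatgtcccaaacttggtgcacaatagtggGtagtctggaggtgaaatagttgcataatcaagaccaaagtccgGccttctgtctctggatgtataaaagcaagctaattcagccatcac
The next belongs to the most abundant member, Cyp2e1, at chr7:140763569-140763818 on the plus strand, with the TATA box in capitals.
Cyp2e1: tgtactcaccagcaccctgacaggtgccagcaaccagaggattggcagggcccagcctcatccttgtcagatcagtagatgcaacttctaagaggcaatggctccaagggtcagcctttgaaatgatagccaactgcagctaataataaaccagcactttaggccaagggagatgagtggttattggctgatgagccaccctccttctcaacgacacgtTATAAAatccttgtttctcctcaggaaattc
The last belongs to Cyp3a11, a drug-metabolising enzyme of the liver that was read almost only in wild type replicate 3, at chr5:145879855-145880104 on the minus strand, with a match to the binding letters of the liver and kidney factor HNF4 in capitals.
Cyp3a11: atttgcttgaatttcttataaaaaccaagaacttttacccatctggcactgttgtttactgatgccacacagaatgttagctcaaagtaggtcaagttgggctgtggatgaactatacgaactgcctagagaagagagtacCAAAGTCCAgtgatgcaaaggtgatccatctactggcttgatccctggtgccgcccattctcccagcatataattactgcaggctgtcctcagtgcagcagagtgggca

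Motifs were searched on both strands of these 250 bases for the 49 genes with a RefSeq entry (51 entries, some genes having more than 1 start) and in 32851 promoters in all. The letters TATAAA stood in the entries of 22 of the genes and in 12.4% of all promoters. They start 29 bases upstream in Cyp2a5, 28 in Cyp2a4 and 31 in Cyp2e1. The HNF4 letters CAAAGTCCA stood in 8 entries (Cyp2c40, Cyp2c65, Cyp2c67, Cyp2c68, Cyp2c69, Cyp2c70, Cyp3a11 and Cyp3a16) and in 0.384% of all promoters. For the D-box, which Dbp, Tef and Hlf bind, the letters TTANGTAA were searched with any base at N, so a match need not be a D-box. They stood in the entry of Cyp2c38, as TTACCTAA matched on the opposite strand, and in 2.06% of all promoters. The core of the xenobiotic response element bound by the Ah receptor, GCGTG, stood in 8 entries, Cyp1a1 and Cyp1b1 among them, and in 28.2% of all promoters. A match describes the letters and is not evidence of binding.

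The kidney cortex used few of the 57 genes, and among them 1 dominated. Cyp2e1, the ethanol-inducible enzyme of small solvents and acetone at chr7:140763832-140774977, took 49.9% of the read pairs of the 57 genes over all libraries (43.8 to 53.3% by library). The Cyp2d genes took 23.7% of them, the Cyp2a genes 18.7% and the Cyp2j genes 5.34%. These shares leave out Cyp2j5 and Cyp2j13, set aside by the rule. Those had 165858 and 26517 read pairs over all libraries, against 285218 for Cyp2e1, so the shares hold for the 57 genes only. Of the 57 genes, 22 passed the filter on low counts (a minimum count of 10) and were tested, 27 had read pairs but did not pass, and 8 had none in any library (Cyp2a22, Cyp2c39, Cyp2c55, Cyp2c66, Cyp2g1, Cyp2w1, Cyp3a16 and Cyp3a44). A count of 0 in all libraries, taken as fewer than 3 read pairs, allows a level of up to 0.0285 CPM, counting error only. The genes lie mostly in clusters: 15 on chromosome 7, 15 on chromosome 19, 9 on chromosome 15, 8 on chromosome 5 and 5 on chromosome 4. From the large Cyp2c cluster on chromosome 19 only 3 of 15 genes were tested, and from Cyp3a on chromosome 5 only 1 of 7.

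Levels between genes were compared per kilobase of exon. The ranks are among the tested members and leave out Cyp2j5, which averaged 432 CPM per kilobase (364 to 489). Over the 6 libraries Cyp2e1 averaged 1579 CPM per kilobase (range 1097 to 1967). Next came Cyp2a4 at 419.8 (331 to 573) and Cyp2d9, a male-biased steroid 16-alpha-hydroxylase, at 348 (322 to 374). Cyp2d12 followed at 226 (156 to 323), then Cyp2a5, the coumarin 7-hydroxylase, at 188 (93.8 to 369), Cyp2d26 at 171 (134 to 232) and Cyp2j11 at 103 (87.9 to 120.1). Within each of the 6 libraries Cyp2e1 was above Cyp2a4, Cyp2a4 above Cyp2d9, Cyp2d9 above Cyp2d12 and Cyp2d26 above Cyp2j11, although the ranges over libraries overlap from Cyp2a4 to Cyp2d26. The places of Cyp2d12, Cyp2a5 and Cyp2d26 changed between libraries: Cyp2d12 was above Cyp2a5 in 4 of 6 and Cyp2a5 above Cyp2d26 in 3 of 6. A middle group (Cyp2d22, Cyp2j6, Cyp2c44, Cyp2j9, Cyp2f2, Cyp2s1 and Cyp1b1) averaged 7.55 to 18.9 CPM per kilobase. The last 8 tested genes averaged 0.168 to 1.08; among them are Cyp2r1, a vitamin D 25-hydroxylase, Cyp1a1, the classical target of the Ah receptor, and Cyp2b10, the classical target of the receptor CAR.

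**Figure D1:**
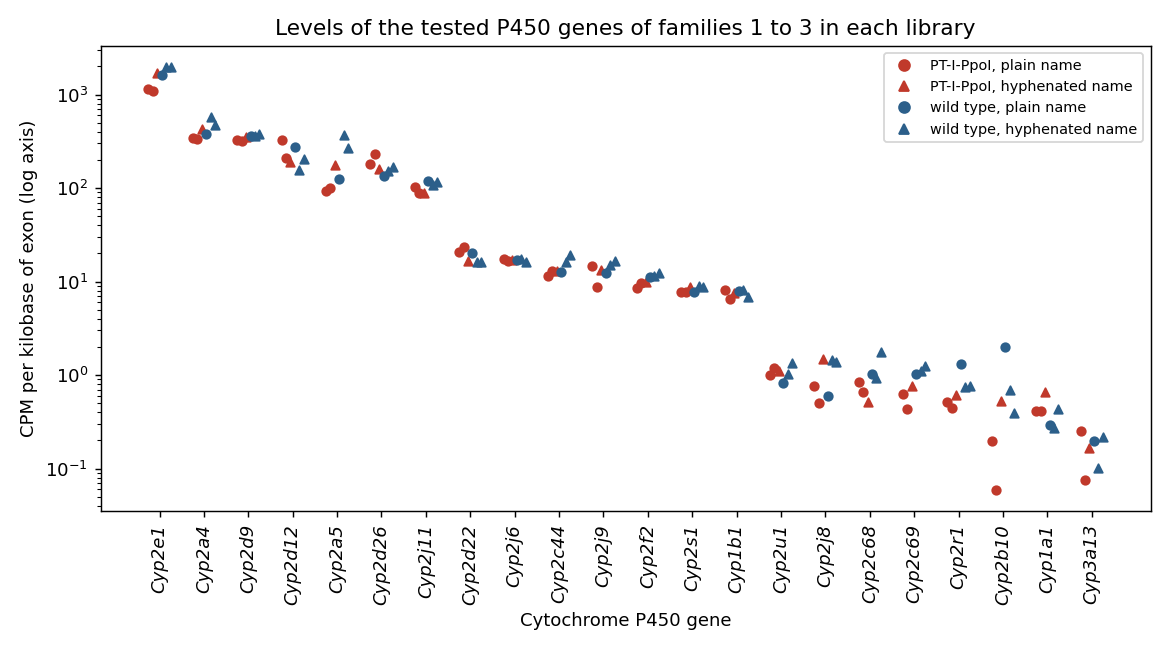
Level of each of the 22 tested genes in each of the 6 libraries, in CPM per kilobase of exon on a log axis, ordered by mean level. Red marks PT-I-PpoI and blue wild type, circles plain and triangles hyphenated library names; Cyp2e1 ranges from 1097 to 1967, Cyp3a13 from 0.0747 to 0.251.

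The first question the design poses is whether these enzymes differ between kidneys with and without I-PpoI in the proximal tubule. None of the 22 tested genes passed in edgeR's quasi-likelihood test (adjusted p below 0.05), where 0.136% of the 13977 genes tested passed as higher in PT-I-PpoI and 0% as lower. None passed in DESeq2 either, with 0.952% of its genes called higher, 0.437% lower and 1.39% in all, or in limma-voom, with 0.1% higher and 0% lower. At an unadjusted edgeR p below 0.05, 0 members were higher and 10 were lower, 45.5% of the 22, against 6.42% higher, 5.61% lower and 12% either over all genes. The 10 include the scarce Cyp2b10, which had the largest fitted change of the 22 (log2 -2.07 ± 0.76, edgeR adjusted p = 0.360). It had 7, 2 and 14 read pairs in PT-I-PpoI replicates 1, 2 and 3, and its values by library are given below. Adding the name form as a term, again 0 members passed, where 0.351% of all genes were higher, 0.107% lower and 0.458% either; at an unadjusted p below 0.05, 0 were higher and 9 lower (40.9% of the 22, against 6.24% higher, 6.32% lower and 12.6% either). Without that term, the fitted difference was below 0 for 16 of the 22, with a median log2 fold change of -0.28, against 49.9% of all genes and a median of 0.00. With the term, 15 of the 22 were below 0 and the median was -0.16, against 51.4% of all genes and a median of -0.01. These 22 are the genes that passed a filter on counts, and they were chosen with results known, so the counts describe them and are no test of the family. In bulk RNA, fewer proximal tubule cells and less RNA per cell cannot be told apart.

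Cyp2e1 was read at 2001, 1904 and 2916 CPM in PT-I-PpoI replicates 1, 2 and 3 and 2804, 3403 and 3414 CPM in wild type replicates 1, 2 and 3. PT-I-PpoI replicates 1 and 2 were the lowest libraries, while PT-I-PpoI replicate 3 lay above wild type replicate 1, so the groups overlapped. The log2 fold change, PT-I-PpoI relative to wild type, was -0.50 ± 0.18 (SE; 3 libraries per group, edgeR adjusted p = 0.347). With the name form as a term it was -0.37 ± 0.09 (edgeR adjusted p = 0.126, the smallest of any member in that fit). Without PT-I-PpoI replicate 3 it was -0.71, and Cyp2e1 then passed (edgeR adjusted p = 0.0248).

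Between groups, with all libraries and no term for the name form, Cyp2f2 at chr7:27119955-27133660 had the smallest p of any member. Cyp2f2 is an enzyme of the lung that activates naphthalene. It was read at 15.7, 17.4 and 17.9 CPM in PT-I-PpoI replicates 1, 2 and 3 and 20.3, 21.05 and 22.2 CPM in wild type replicates 1, 2 and 3. Each PT-I-PpoI library was below each wild type library, by a small step: the log2 fold change was -0.32 ± 0.10, with an edgeR adjusted p of 0.286. Within plain and within hyphenated libraries the differences in mean log2 CPM were -0.30 and -0.27.

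Cyp2f2 was 1 of 6 members with no overlap between groups, all of them lower in PT-I-PpoI (27.3% of the 22), where 7.74% of all genes tested were lower, 9.23% higher and 17% either without overlap. The second, Cyp2j11, belongs to a subfamily that makes epoxides of arachidonic acid. Its levels were 199, 169.9 and 170.0 CPM in PT-I-PpoI replicates 1, 2 and 3 and 232, 207 and 222 CPM in wild type replicates 1, 2 and 3, and the log2 fold change was -0.30 ± 0.09, with an edgeR adjusted p of 0.306. The third, Cyp2d9, was within 531 to 575 CPM in the PT-I-PpoI group and within 590.0 to 618 CPM in wild type, with a log2 fold change of -0.14 ± 0.08.

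The other 3 were scarce. Cyp2c69 was within 0.772 to 1.35 CPM in the PT-I-PpoI group and within 1.83 to 2.19 CPM in wild type, with a log2 fold change of -0.90 ± 0.27. For Cyp2c68, of the same cluster, the ranges were 0.921 to 1.48 and 1.67 to 3.09 CPM, and the log2 fold change was -0.88 ± 0.32. These 2 are uncertain as single genes, since 33.6% of the 100-base windows of the Cyp2c69 transcript and 19.8% of those of Cyp2c68 also occur in another P450 transcript, and read pairs with several equal matches were not counted. Cyp2r1 ranged from 0.717 to 0.992 CPM in PT-I-PpoI and from 1.21 to 2.12 CPM in wild type, and its log2 fold change was -0.87 ± 0.33. Wild type replicate 1 was the highest library for Cyp2r1, and the difference was -1.32 within plain libraries and -0.28 within hyphenated ones. The edgeR adjusted p-values of these 3 genes were 0.289, 0.358 and 0.368.

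Among the abundant enzymes, Cyp2a5 had a fitted fold of 0.487 (log2 -1.04 ± 0.37, edgeR adjusted p = 0.3504) and Cyp2a4 of 0.773 (log2 -0.37 ± 0.16, adjusted p = 0.415), with overlapping groups in both. These folds do not account for the name form. Fitted jointly with it, Cyp2a5 was at log2 -0.61 ± 0.15 (edgeR adjusted p = 0.136) and Cyp2a4 at -0.23 ± 0.09 (adjusted p = 0.344). For Cyp2a5 the group difference in mean log2 CPM was -0.37 among plain and -0.84 among hyphenated libraries. On the other side of 0 lay Cyp2d26, at 298, 382 and 261 CPM in PT-I-PpoI replicates 1, 2 and 3 and 219.9, 253 and 274 CPM in wild type replicates 1, 2 and 3 (log2 fold change 0.33 ± 0.15, edgeR adjusted p = 0.415). Its difference was 0.62 within plain and -0.01 within hyphenated libraries. Cyp1a1, the sensor gene of Ah receptor activity, was within 1.16 to 1.84 CPM in the PT-I-PpoI group and within 0.757 to 1.195 CPM in wild type, at 0.55 ± 0.32 on the log2 scale (edgeR adjusted p = 0.5103). Cyp2j6 stayed within 57.7 to 63.5 CPM over all 6 libraries, with a log2 fold change of 0.02 ± 0.07. Taken within each name form, the group difference was below 0 in both forms for 12 of the 22 genes (54.5%) and above 0 in both for 4, against 26.4% and 26.1% of all genes tested; each form has a single library in 1 of its groups.

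Markers of other nephron segments moved between the groups too, and their part in the P450 values was not tested. All 8 fixed markers of the thick ascending limb lay above 0, 2 of them past the threshold, with a summed level of 7604 to 7831 CPM in the PT-I-PpoI libraries and 5359 to 6130.3 CPM in the wild type ones. For the collecting duct the sums were 1100.0 to 1196 and 793 to 839 CPM, with 10 of 10 above 0 and 1 past the threshold, and for the medulla 1421 to 1476 and 1044 to 1334 CPM, with 6 of 6 above 0 and 1 past it. DESeq2 called 5, 4 and 3 genes of these lists. Endothelial markers lay above 0 too, 8 of 8 with 0 past the threshold in edgeR or DESeq2 and 3 at an unadjusted edgeR p below 0.05, and their sums were 687 to 723 CPM in the PT-I-PpoI libraries and 569 to 651 CPM in the wild type ones. Proximal tubule markers went the way of the P450 genes without passing in edgeR (2 and 6 at an unadjusted p below 0.05; DESeq2 called 0 and 4): 9 of 10 convoluted and 8 of 10 straight segment markers lay below 0, with medians of -0.21 and -0.50. Their summed levels overlapped between groups, at 3249 to 5005 CPM in the PT-I-PpoI libraries and 4357 to 6162 CPM in the wild type ones for the straight segment and 19053 to 23077 and 21863 to 25969.6 CPM for the convoluted one. The values of all these lists were taken without the name form as a term. The proximal tubule markers also differed between forms, as given below. None of the markers of these 6 lists was at 0 in all libraries except Akr1b3.

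**Figure D2:**
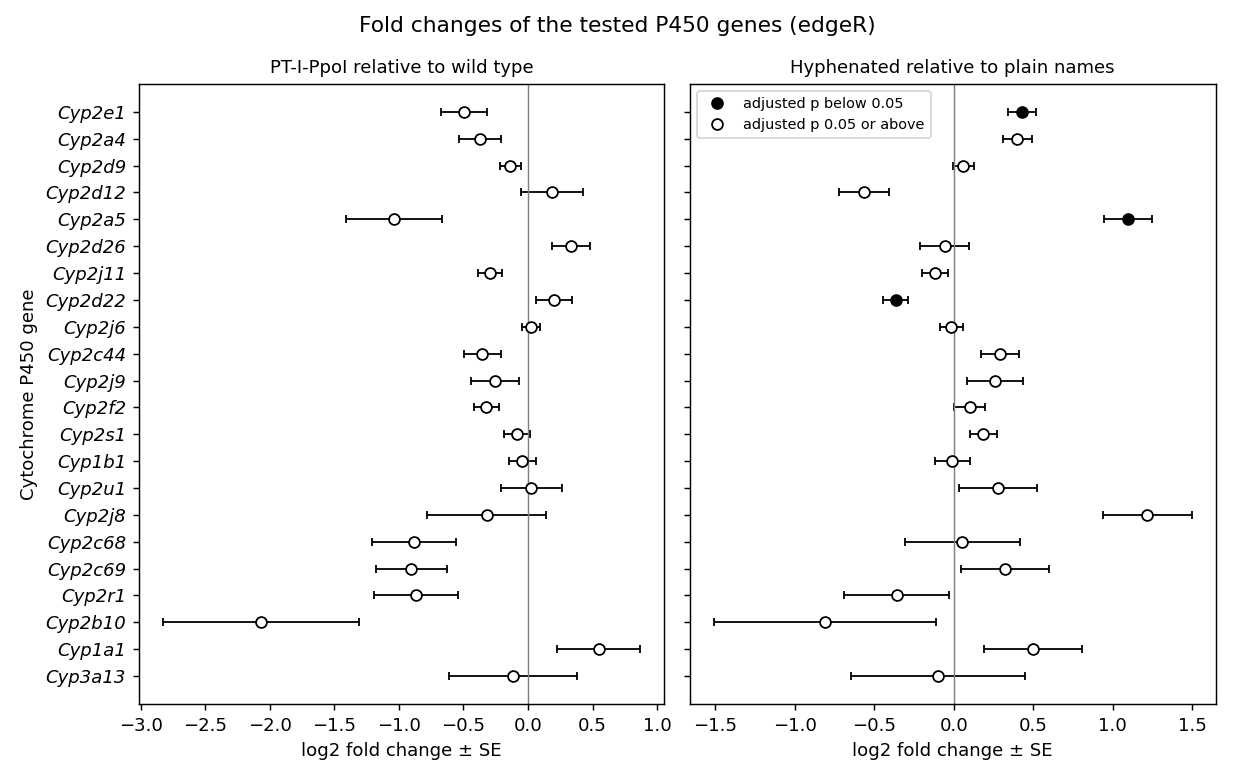
Log2 fold change with its SE for each of the 22 tested genes, from edgeR, between groups (left) and between name forms with the group as a term (right); genes are ordered by level as in the plot of levels. No point is filled on the left, and 3 are filled on the right: Cyp2e1 at 0.43 ± 0.09, Cyp2a5 at 1.10 ± 0.15 and Cyp2d22 at -0.36 ± 0.08.

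Between name forms, with the group as a term, 3 of the 22 genes passed, 2 of them higher in hyphenated libraries and 1 lower. That is 13.6% of the 22, where 1.77% of the 13977 genes were higher, 1.29% lower and 3.06% either (248 and 180 genes, or 184 and 218 with upper-quartile scaling). At an unadjusted edgeR p below 0.05, 5 members were higher and 2 lower (31.8% of the 22, against 9.82% higher, 9.01% lower and 18.8% either over all genes), and the median log2 fold change over the 22 was 0.08, against -0.01 over all genes.

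The largest change that passed was that of Cyp2a5, which hydroxylates coumarin and nicotine, at chr7:26835339-26843264. It was read at 161, 173 and 215 CPM in the plain libraries (PT-I-PpoI replicates 1 and 2, then wild type replicate 1) and at 301, 633 and 456 CPM in the hyphenated ones (PT-I-PpoI replicate 3, then wild type replicates 2 and 3). Every hyphenated library was above every plain one, and in both forms the wild type libraries were above the PT-I-PpoI ones. Cyp2a5 was 2.14-fold higher in hyphenated libraries (log2 fold change 1.10 ± 0.15, 3 libraries per form, edgeR adjusted p = 0.00868). The difference in mean log2 CPM was 0.85 within PT-I-PpoI and 1.32 within wild type. It passed in 15 of 15 alternative tests, with log2 fold changes of 0.68 to 1.36 and a largest adjusted p of 0.0290.

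Cyp2a4, the steroid 15-alpha-hydroxylase at chr7:26307192-26315088, followed with a smaller step: 584, 568 and 651 CPM in plain and 732, 983 and 802 CPM in hyphenated libraries. Again the forms did not overlap, at a log2 fold change of 0.40 ± 0.09, but the edgeR adjusted p was 0.05603, and Cyp2a4 passed in 3 of 15 alternatives. The 2 coding sequences are identical at 1462 of 1485 aligned bases (98.45%), and 11.3% of the 100-base windows of the Cyp2a4 transcript and 9.56% of those of Cyp2a5 are shared between them, so their separate counts carry that uncertainty. Cyp2a4 had 3.63, 3.28 and 3.03 read pairs for each of Cyp2a5 in the plain libraries and 2.43, 1.55 and 1.76 in the hyphenated ones. The log2 ratio of Cyp2a5 to Cyp2a4 was thus higher by 0.82 in hyphenated libraries (-0.91 ± 0.33 against -1.73 ± 0.13, mean ± SD, n = 3; exact permutation test, two-sided, p = 0.1, the smallest that 3 against 3 allows). Between groups the same ratio differed by -0.60 (-1.62 ± 0.30 in PT-I-PpoI against -1.02 ± 0.51 in wild type, mean ± SD, n = 3; exact permutation test, two-sided, p = 0.2), and neither test holds the other factor fixed. This ratio was chosen after its values were seen. The upstream stretches shown above differ at the 4 capital letters only, apart from the end gaps.

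Cyp2e1 was at 2001, 1904 and 2804 CPM in plain and 2916, 3403 and 3414 CPM in hyphenated libraries. The highest plain library, wild type replicate 1, lay just under the lowest hyphenated one. The difference was 1.35-fold (log2 0.43 ± 0.09, edgeR adjusted p = 0.0347), with 0.58 within PT-I-PpoI and 0.28 within wild type. It passed in 8 of 15 alternatives. Leaving out any 1 library other than wild type replicate 1 moved its adjusted p above the threshold (0.0551 to 0.157), and leaving out that library gave 0.58 and an adjusted p of 0.00841.

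Cyp2d22, a member of the drug-oxidising Cyp2d subfamily at chr15:82370527-82380260, went the other way, from 56.99, 65.1 and 56.6 CPM in plain to 46.3, 44.8 and 44.9 CPM in hyphenated libraries. The 3 hyphenated libraries lay close together and below all plain ones. It was 1.29-fold higher in plain libraries (log2 fold change -0.36 ± 0.08, edgeR adjusted p = 0.0471). Hyphenated minus plain, the difference in mean log2 CPM was -0.39 within PT-I-PpoI and -0.33 within wild type. It passed in 6 of 15 alternatives and in none of the 6 that leave out 1 library (adjusted p 0.0660 to 0.143).

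In all, 8 of the 22 genes (36.4%) did not overlap between forms, 6 higher and 2 lower in hyphenated libraries, where 12.3% of all genes were higher, 13.1% lower and 25.5% either without overlap. Beside those that passed and Cyp2a4, these were Cyp2c44, Cyp2s1 and Cyp2j8 on the higher side and Cyp2d12 on the lower. Cyp2j8, a scarce gene of the same subfamily as Cyp2j11, was at 1.16, 0.772 and 0.915 CPM in plain and 2.27, 2.196 and 2.09 CPM in hyphenated libraries (log2 fold change 1.22 ± 0.28, edgeR adjusted p = 0.05498). Cyp2c44, an arachidonic acid epoxygenase of the kidney, was at 24.98 to 28.5 and 28.8 to 41.9 CPM, with an adjusted p of 0.226. The ranges of Cyp2s1 were 20.1 to 20.5 and 22.96 to 23.5 CPM, with an adjusted p of 0.289. Cyp2d12 was at 524, 344 and 448 CPM in plain and 305, 254 and 328 CPM in hyphenated libraries, with a log2 fold change of -0.57 ± 0.16 and an adjusted p of 0.1004.

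Within the Cyp2d cluster on chromosome 15 the 4 tested genes thus differed among themselves: between forms Cyp2d12 and Cyp2d22 had negative values, Cyp2d9 was at 0.06 ± 0.07 and Cyp2d26 at -0.06 ± 0.15. The 3 tested Cyp2c genes ranged from 0.05 (Cyp2c68) to 0.32 (Cyp2c69). In the Cyp2j cluster on chromosome 4 Cyp2j11 was at -0.12 ± 0.08, Cyp2j6 at -0.02 ± 0.07, Cyp2j9 at 0.26 ± 0.18 and Cyp2j8 at 1.22 ± 0.28. Of the 2 genes of that cluster set aside by the rule, the abundant Cyp2j5 was at 0.12 ± 0.07 between forms and -0.33 ± 0.10 between groups, and Cyp2j13 at 0.45 ± 0.09 and -0.70 ± 0.17. Of these 4 values that of Cyp2j13 between forms passed (edgeR adjusted p = 0.0316). Once the name form entered the model, the group value of Cyp2j13 was -0.56 ± 0.09 and passed as well (edgeR adjusted p = 0.0452), and that of Cyp2j5 was -0.29 ± 0.07 (adjusted p = 0.134).

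**Figure D3:**
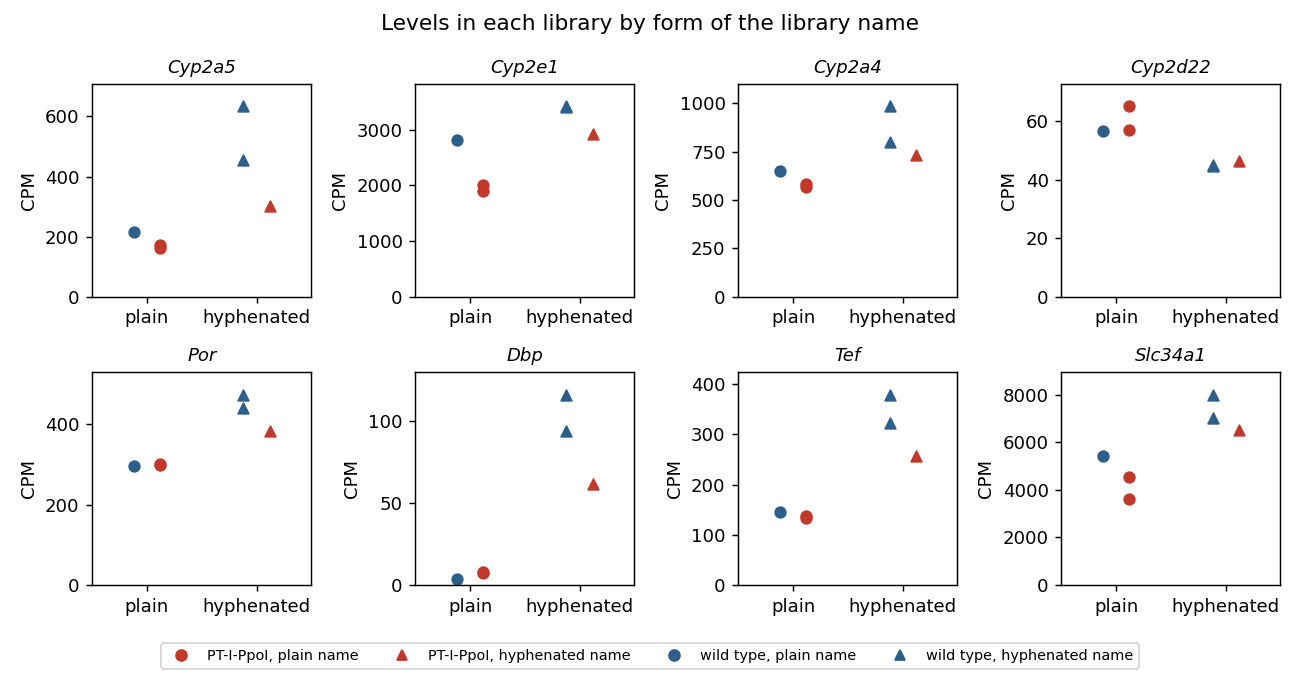
CPM in each of the 6 libraries, by form of the library name, for 4 of the P450 genes, their electron donor Por, the clock output factors Dbp and Tef and the proximal tubule phosphate transporter Slc34a1; each panel has its own axis from 0. Hyphenated libraries lie above plain ones in 7 panels and below them for Cyp2d22.

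Of the genes that work with or regulate P450s, those of the clock moved most with the name form. Of 15 tested genes of the PAR bZIP and clock list, 7 were higher and 3 lower in hyphenated libraries (7 to 12 called over the alternatives), and 0 passed between groups by edgeR or DESeq2, nor did any at an unadjusted edgeR p below 0.05. Dbp was at 7.25, 8.22 and 3.66 CPM in plain and 61.7, 116 and 93.9 CPM in hyphenated libraries (log2 fold change 3.76 ± 0.33, edgeR adjusted p = 0.0009497). Tef, Hlf, Nr1d2, Per2, Per3 and Ciart were higher too, with log2 fold changes of 0.73 (Hlf) to 4.03 (Ciart), and Nfil3, Npas2 and Arntl were lower, at -1.84 ± 0.23, -2.28 ± 0.20 and -2.10 ± 0.28. The time of tissue collection is not given in the sources used here, and the part of the clock genes in the P450 values was not tested.

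Markers of the proximal tubule also differed between forms. Of 10 straight segment markers 10 lay above 0 and 5 passed, with a summed level of 3249 to 4357 CPM in plain and 5005 to 6162 CPM in hyphenated libraries. Of 10 convoluted segment markers 9 lay above 0 and 2 passed, with sums of 19053 to 21863 and 23077 to 25969.6 CPM. The log2 changes of the 7 that passed ran from 0.33 ± 0.07 (Slc7a13) to 1.41 ± 0.12 (Slc22a7, an anion transporter), with the phosphate transporter Slc34a1 at 0.57 ± 0.11. Fibroblast and mural markers lay on the other side, 8 of 9 below 0 and 1 past the threshold (Pdgfra, -0.62 ± 0.12), with summed levels of 228 to 253 CPM in plain and 184 to 208 CPM in hyphenated libraries. Thick ascending limb markers lay below 0 too, 8 of 8 with a median of -0.05 and 1 past the threshold (Cldn10, -0.52 ± 0.09). Among medulla markers 1 passed as higher (Slc5a3, 0.62 ± 0.07), among endothelial ones 1 as lower, and no collecting duct marker passed. Of the hepatocyte markers the fibrinogen genes Fga (-1.16 ± 0.15) and Fgg (-0.97 ± 0.14) passed as lower in hyphenated libraries. No marker of these lists was at 0 in all libraries except Akr1b3 of the medulla list, and their part in the P450 values was not tested.

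The electron donor Por, which serves all of these enzymes, was at 298, 302 and 296 CPM in plain and 384, 441 and 473 CPM in hyphenated libraries. It passed between forms (log2 fold change 0.49 ± 0.08, edgeR adjusted p = 0.0191) and not between groups (-0.30 ± 0.18, adjusted p = 0.514). It was the only called gene among 7 redox partners. Cyb5a and Cyb5b, which also pass electrons to P450s, were lower without overlap in PT-I-PpoI, at -0.27 ± 0.10 and -0.21 ± 0.09, with adjusted p-values of 0.362 and 0.416.

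None of 12 genes of heme synthesis and breakdown passed in either comparison by edgeR or DESeq2 (unadjusted edgeR p below 0.05 for 1 between groups and 3 between forms); the nearest were Cpox between groups (-0.37 ± 0.09, adjusted p = 0.2097) and Hmox1 between forms (-0.26 ± 0.07, adjusted p = 0.0771). Alas1, the first and rate-limiting step of heme synthesis, ranged from 109 to 295 CPM. None of 11 nuclear receptors and partners passed by either tool (unadjusted 2 and 2): the drug receptor PXR (Nr1i2) was at 8.72 to 13.1 CPM and CAR (Nr1i3) at 0.607 to 1.59 CPM over the 6 libraries, and 10 of the 11 lay below 0 between groups. Of the Ah receptor list 0 of 6 tested genes passed by either tool (unadjusted 1 and 2), with Ahr within 4.604 to 4.97 CPM in the PT-I-PpoI group and within 5.43 to 6.84 CPM in wild type (-0.35 ± 0.15, adjusted p = 0.413). Of the tissue activators 0 of 6 passed by either tool (unadjusted 1 and 0), with Hnf4a at 754 to 919 and 947 to 999 CPM (-0.25 ± 0.10, adjusted p = 0.393) and the liver factor Onecut1 at 0 in all libraries.

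Of 11 genes of the sex and growth hormone axis, which sets the sex bias of Cyp2a4 and Cyp2d9 in liver, the prolactin receptor Prlr was the only one to pass in edgeR, between forms, falling from 54.5, 48.7 and 40.5 CPM in plain to 11.6, 7.799 and 11.5 CPM in hyphenated libraries (log2 fold change -2.10 ± 0.14, edgeR adjusted p = 0.000437). Between groups 0 passed in edgeR, 2 were higher at an unadjusted p below 0.05, and DESeq2 called 1. Bcl6 was higher without overlap in PT-I-PpoI (0.96 ± 0.16, adjusted p = 0.0808). Of 13 enzymes that act after P450s, Ugt2b38 passed between forms (0.83 ± 0.11, adjusted p = 0.007100) and 0 between groups by edgeR (6 at an unadjusted p below 0.05, and 2 by DESeq2), where Nat8 (-0.40 ± 0.09, adjusted p = 0.188) and Tpmt (-0.31 ± 0.08, adjusted p = 0.201) had the smallest p.

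Whether the group difference itself depended on the name form was asked with an interaction term, which leaves 2 residual degrees of freedom. None of the 22 genes passed, where 0.472% of all genes passed as higher, 0.215% as lower and 0.687% either. At an unadjusted edgeR p below 0.05, 2 members were higher and 1 lower (13.6%, against 7.81% higher, 6.24% lower and 14% either over all genes), and DESeq2 called 0 members (0.487% higher, 0.25% lower and 0.737% in all over its genes). The smallest adjusted p, 0.0924, belonged to Cyp2b10 at chr7:25897658-25926624, with a term of 3.91 ± 0.85. It was at 0.3704, 0.1104 and 0.992 CPM in PT-I-PpoI replicates 1, 2 and 3 and 3.71, 1.29 and 0.747 CPM in wild type replicates 1, 2 and 3, so wild type replicate 1 stood above the other 5 and PT-I-PpoI replicate 2 lowest. Within plain libraries its group difference was -3.53 and within hyphenated ones 0.01; it passed the interaction test without the count filter, without PT-I-PpoI replicate 1 and without wild type replicate 2 (adjusted p 0.0395, 0.00977 and 0.0470). Wild type replicate 1 also had the highest summed level of the 7 fixed adipocyte markers, 61.9 CPM against 6.88 to 37.3 in the other libraries, with Adipoq at 0.582, 2.32 and 5.32 CPM in PT-I-PpoI replicates 1, 2 and 3 and 9.87, 3.03 and 2.04 CPM in wild type replicates 1, 2 and 3. No adipocyte marker was at 0 in all libraries, and their part in the Cyp2b10 values was not tested. Cyp2d26 had an interaction term of -0.64 ± 0.20 (edgeR adjusted p = 0.209) and passed only without PT-I-PpoI replicate 1.

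Among the genes below the filter were drug-metabolising P450s known from the liver, such as Cyp3a11, Cyp2c29 and Cyp1a2. Of the 27 untested genes with any read pair, 12 had more than 50% of their read pairs in wild type replicate 3: 380 there and 68 in the other 5 libraries together. Their summed level was 18.9 CPM in that library and 0.688 to 0.915 CPM in the others. The 12 genes were picked by their share in that library, so these sums follow from the choice and test nothing. How many other low-count genes meet the same rule was not counted. Cyp3a11 was read with 178 read pairs in it and with 2, 3, 5, 6 and 3 in PT-I-PpoI replicates 1 to 3 and wild type replicates 1 and 2. Cyp3a25 had 39 there and 3 elsewhere in all, Cyp2c29 34 of 44, Cyp2a12 26 of 28 and Cyp2d10 36 of 63. Found in that library only were Cyp2c50 (21 read pairs), Cyp2c37 (10), Cyp1a2 (10), the caffeine-metabolising enzyme, and Cyp2c54 (8). The 8 HNF4 matches include 3 of these 12 genes (Cyp2c67, Cyp2c70 and Cyp3a11).

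The same library held more RNA of most liver markers. Alb, which encodes serum albumin, was at 11.2, 10.9 and 9.92 CPM in PT-I-PpoI replicates 1, 2 and 3 and 10.4, 10.1 and 110.1 CPM in wild type replicates 1, 2 and 3. Wild type replicate 3 was the highest library for 9 of the 12 hepatocyte markers. Ahsg was at 11.7 CPM there and at most 0.638 elsewhere, Apoa1 at 11.95 and at most 1.93, and Cps1 at 3.59 and at most 0.227. The summed level of the 12 markers, to which Apob and the fibrinogen genes contribute most, was 486 CPM in wild type replicate 3 and 265 to 451 CPM elsewhere, and no marker was at 0 in all libraries. Their part in the P450 values was not tested. Of the 22 tested members 8 were highest in wild type replicate 3 (Cyp2e1, Cyp2d9, Cyp2c44, Cyp2j9, Cyp2f2, Cyp2u1, Cyp2c68 and Cyp2c69), with Cyp2c68 at 3.09 CPM against 0.921 to 1.83 elsewhere. So were 9 of 10 convoluted and 4 of 10 straight proximal tubule markers. The share of all genes tested that were highest there was not counted, so the 8 are named only. Without that library Cyp2a5 still passed between forms (log2 fold change 1.16, edgeR adjusted p = 0.0176).

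**Figure D4:**
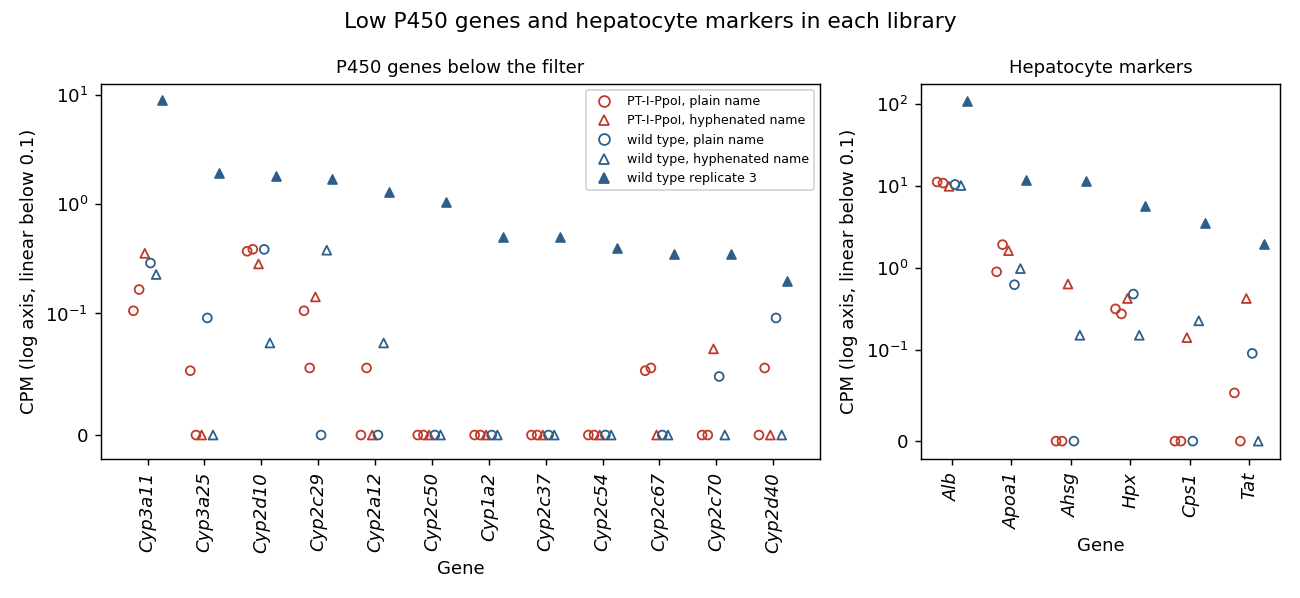
CPM in each library, on a log axis that is linear below 0.1, of the 12 untested P450 genes with more than 50% of their read pairs in wild type replicate 3 (left) and of 6 hepatocyte markers (right). The filled triangle, wild type replicate 3, is the highest point of each gene, with Cyp3a11 at 8.87 CPM and Alb at 110.1 CPM. The P450 genes were picked by their share in that library. The 6 markers are among the 9 of 12 that were highest there, and Apob, Fga and Fgg, which were not, are not shown.

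The remaining 15 genes with read pairs but below the filter had 50% or less of them in wild type replicate 3. The scarcest were read in few libraries, such as Cyp2j12 with all 4 read pairs in wild type replicate 1 and Cyp2b19 with 1 in PT-I-PpoI replicate 1. Cyp2b9, a female-biased gene in liver, had 5 to 9 read pairs in each library, and Cyp2d13 1 to 12. Cyp2t4 and Cyp2b23 had 40 and 25 in all, each with 0 in 1 library. Cyp2c38, the gene with the match to TTANGTAA, had 2 to 6 in each library, and Cyp2c40 6 in all, with 44.1% of its transcript's windows shared with other P450 transcripts. The other 9 had 15 or fewer in all, and none of the 15 entered the tests described above.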

How the data were processed

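RNA of the kidney cortex was sequenced in 6 libraries, 3 for each group, with a stranded mRNA kit as pairs of 100 cycles, per the labels' protocols. The authors deposited read pair counts per gene. HISAT2 is named as the mapper in the labels' protocols, and featureCounts 1.5.2 as the counter per the file headers. Its command line set no strand option and none for reads with several matches, so overlapping antisense genes and close paralogs such as Cyp2a4 and Cyp2a5 may share or lose reads. The labels name mm9 and the header mm10; 56 of 57 members matched RefSeq GRCm38.p6 by symbol, and 56 of these overlapped its position, so coordinates are mm10. The authors also deposited log2 values (rlog, regularized log2, with DESeq2 named in the submitters' processing notes), which served 1 alternative test.

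Counts were analysed in R 4.3.3 with edgeR 4.0.16: the default expression filter (minimum count 10, 13977 genes kept), TMM scaling, quasi-likelihood tests over all genes and Benjamini-Hochberg adjustment, with a threshold of 0.05. The group was tested alone, the name form with the group as a term, and their interaction over both. CPM uses TMM-scaled totals, and within-form differences use log2 CPM with a prior count of 2. The procedure was tested on simulated counts. Alternatives used DESeq2 1.42.0, limma 3.58.1, other scalings and filters, other terms and each library left out. No library pair agreed within sampling noise (chi-square over its degrees of freedom at least 4.47). The members, the gene lists and the rule for named genes (all members; of each list the genes that passed and up to 3 with the smallest p; Por, Ahr, Nr1i2, Nr1i3, Hnf4a, Alb and others that are not reported here) were chosen with earlier results of these data known.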

Additional observations from a re-analysis of the deposited data

How the results depend on the processing

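Of the values of single members under the alternatives, 674 kept their direction and their side of the threshold (or, given with no test, stayed within the spread between replicates), 16 lost the threshold, 6 gained it, 35 reversed sign in a fit, 0 of them past the threshold there, and 13, given with no test, moved by more than the spread between replicates. Between groups, the counts of all genes called higher and lower were 19 and 0, and became 44 and 3 with no filter, 133 and 61 with DESeq2 and 49 and 15 with the name form as a term, with 1 higher on the rlog values. Leaving out 1 library at a time gave 0 to 261 higher and 0 to 364 lower, and 0 to 1 members lower. Between forms, DESeq2 called 420 genes higher, and limma-voom and the rlog values called 0 members lower. Leaving out 1 library gave 72 to 546 genes higher and 52 to 284 lower, with 1 to 2 members higher and 0 to 1 lower. For the interaction, tried with alternatives chosen after seeing the data, no filter gave 138 higher and 77 lower genes with 1 member higher, and the rlog values 41 higher. Leaving out 1 library gave 74 to 504 higher and 37 to 355 lower, with 0 to 1 members higher and 0 to 1 lower; with the third PT-I-PpoI or the first wild type library left out it could not be fitted. The cause of these shifts was not tested, apart from the smaller number of libraries or larger number of genes that an alternative itself brings.

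Same-numbered libraries of the groups did not deviate together throughout: over genes, the correlations of their deviations from the group means were 0.22, -0.13 and 0.16 for numbers 1, 2 and 3, so the numbers were not taken to pair the samples. With the replicate block, the group comparison called 33 genes higher and 7 lower and 0 members, and the form comparison 26 higher and 29 lower with 1 member higher, Cyp2a5, and 0 lower. Signs between forms reversed under the block, none past the threshold, for Cyp1b1 (0.41), Cyp2c68 (-0.45), Cyp2c44 (-0.0471), Cyp2u1 (-0.21), Cyp2j6 (0.14), Cyp3a13 (0.47), Cyp2b10 (1.85), Cyp2f2 (-0.0691) and Cyp1a1 (-0.0421). Between groups Cyp2j8 reversed once the name form was added (0.0845), and between forms Cyp1b1 did on the rlog values (0.00142) and without the group term (0.00721). Leaving out 1 library at a time, 12 values changed sign in 1 to 3 fits each. Between groups Cyp2d12 ranged from -0.0824 (without PT-I-PpoI replicate 1) to 0.43, Cyp1b1 from -0.12 to 0.0365, Cyp2j6 from -0.00837 to 0.0456, Cyp2u1 from -0.14 to 0.24 and Cyp3a13 from -0.599 to 0.25. Between forms Cyp2d26 ranged from -0.38 to 0.27 (0.0682 and 0.27 without PT-I-PpoI replicates 2 and 3), Cyp2b10 from -1.91 to 1.999 and Cyp2r1 from -0.78 to 0.34 (both without wild type replicate 1), Cyp2c68 from -0.52 to 0.42 (-0.52 and -0.32 without wild type replicates 1 and 3), Cyp1b1 from -0.0775 to 0.0535, Cyp2j6 from -0.0379 to 0.00845 and Cyp3a13 from -0.35 to 0.23.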
